A study of Mus musculus with 4 samples.

Results

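The histone methylation writers and erasers are the enzymes, with a few of their partner proteins, that place methyl groups on histone tails and take them off. The 45 genes described here were taken by symbol from a fixed list, and 45 of 45 were found among the 25261 gene identifiers of the series. Of the 45, 29 write methylation or belong to the complex that writes it and 16 erase it. They are grouped below by the residue they act on, from H3K4 to H3K79 and arginine.

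Methylation of lysine 4 on histone H3 (H3K4) marks promoters and enhancers, H3K36 methylation marks transcribed gene bodies, and H3K9 and H3K27 methylation mark silenced chromatin. In neural stem cells the balance of H3K4 and H3K27 methylation at developmental genes is known to help hold lineage genes silent until differentiation. Ogt encodes O-GlcNAc transferase, which attaches a single sugar to nuclear and cytoplasmic proteins. Among its known substrates are the H3K27 methyltransferase EZH2 and HCFC1, a partner of the H3K4 methyltransferases.

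RNA was sequenced from adult neural stem cells, labelled as of C57BL/6 strain and 8 weeks of age. One group carried a lentivirus with a scrambled short hairpin RNA (ctrl, 2 libraries) and the other a lentivirus with a short hairpin RNA against mouse Ogt (shOGT, 2 libraries), so that infection and hairpin expression were shared by both groups. The sequence of the hairpin is not given in the sources used here. The labels do not say whether replicate libraries stem from independent cultures, and the p-values therefore describe the spread between these 4 samples alone, which could be technical.

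Each library held 1 deposited value per gene, and the spacing of the values implied 15697508 to 17753976 reads assigned to genes. Ogt measured 4112 and 4138 in ctrl against 3379 and 3516 in shOGT, so that its mean fell by 16.4% and most of the transcript remained (log2 fold change -0.26 ± 0.04, limma adjusted p = 0.00876). Of 10 markers of neural stem cells 10 were measured, with sums of 123817 to 136807, and the lowest was Hes5 at 42.4 to 75.8. Microglial markers were at or near 0 (5 of 5 under 10 in every library, sums of 6.94 to 12.3), as was Mog of mature oligodendrocytes at 0 to 0.997. The deposited values of 7 neuron markers summed to 409 to 520, and those of 2 markers of mural cells and fibroblasts to 12.3 to 20.8. In such bulk libraries, fewer cells of a type and less RNA per cell cannot be told apart.

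Most of the histone methylation machinery was measured at nearly the same level in both groups, and 3 genes fell. Phf8, an eraser of H3K9 methylation, fell by 47.2% in its mean value, Suv39h1, a writer of H3K9 trimethylation, fell by 24.4%, and Rbbp7, a histone-binding subunit of the H3K27 methyltransferase complex, fell by 12%. In limma, with adjustment over all 21829 genes tested, 3 of 45 members were lower (6.67%) and 0 were higher. The same test called 2.9% of all genes lower and 1.96% higher (4.86% in either direction). Because the share of called genes differs with the level, the members were also set beside the 9242 tested genes that lie within the members' own range of mean values (203 to 5327). Of those, 5.69% were called lower and 3.64% higher (9.33% in either direction), so the members' count lies near the background. At an unadjusted limma p under 0.05 there were 6 higher and 6 lower members (26.7% of the 45). At that threshold 9.02% of all genes tested were higher and 10.3% lower (19.3% together), and 13.8% and 17.4% of the genes in the members' range of levels (31.2% together), so this count too is near the background.

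The 42 members that were not called had log2 fold changes of -0.20 to 0.23. For 39 of them the 95% interval of the difference lay inside a 1.25-fold change in either direction. The median log2 fold change over the 45 was 0.005, beside 0.001 over all genes tested, and the median absolute value was 0.07, beside 0.10 in the genes of the same range of levels. Summed over the members, the deposited values were 81254 and 82093 in ctrl against 82648 and 82034 in shOGT. These sums overlap between the groups. Writers had a median of 0.01 and erasers one of -0.002.

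**Figure D1:**
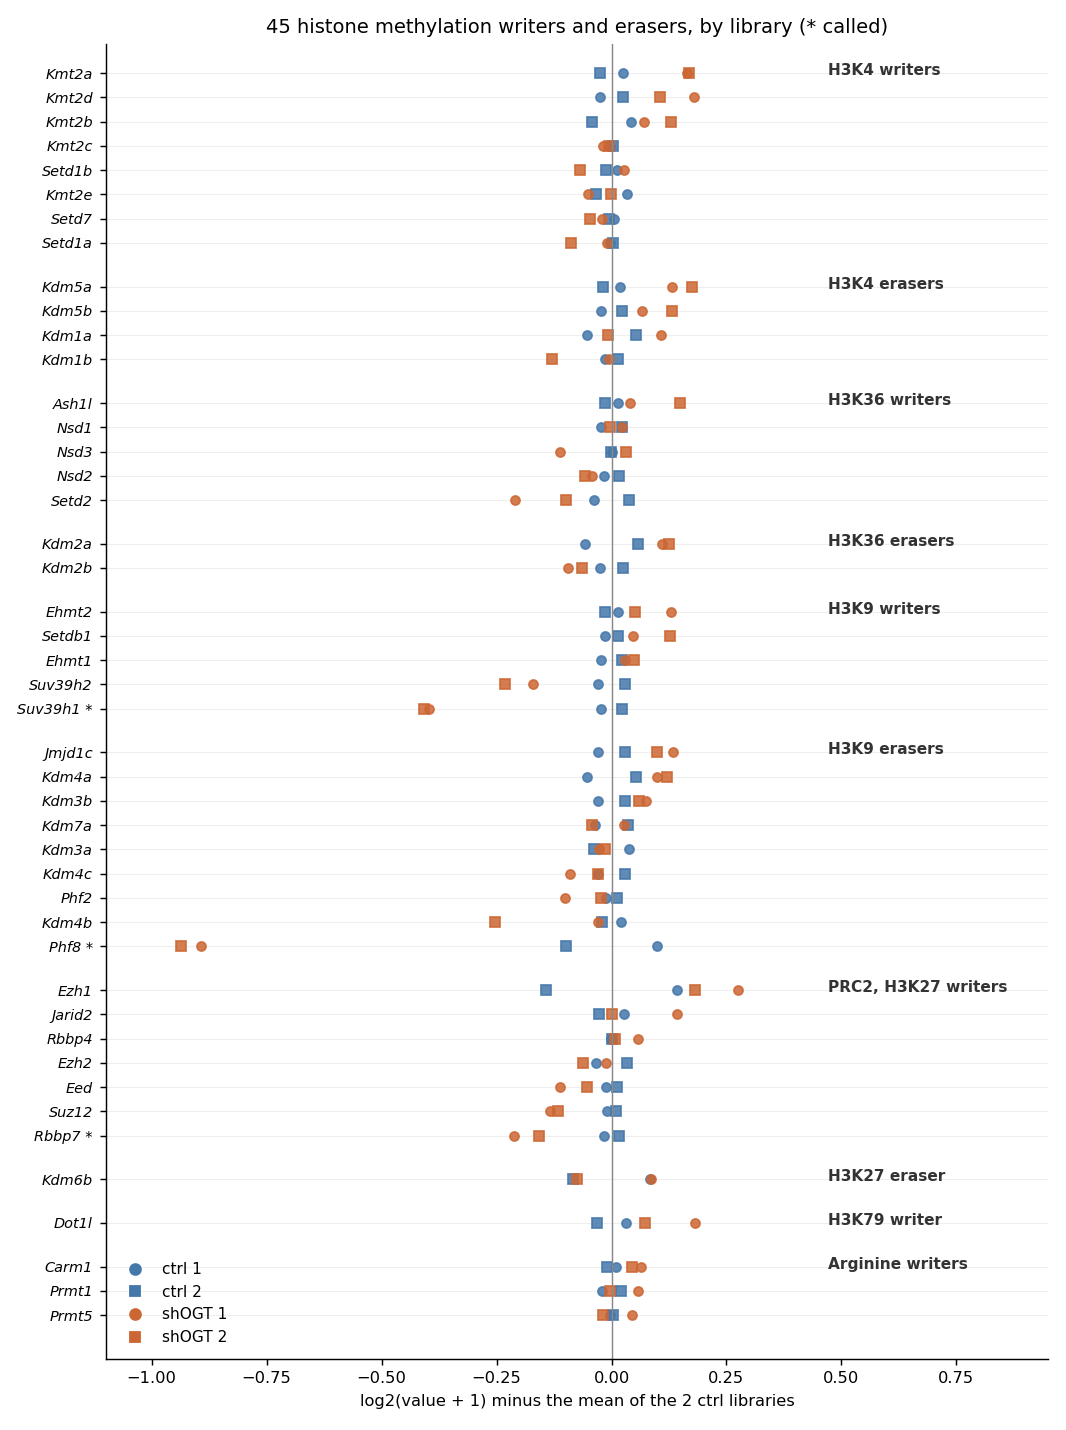
Value of each of the 45 members in each library, as log2(value + 1) minus the mean of the 2 ctrl libraries (horizontal axis), with members grouped by histone mark; circles and squares are replicates 1 and 2 and asterisks mark called members. Phf8, Suv39h1 and Rbbp7 stand to the left of their ctrl libraries, and most other members lie within 0.25 of 0.

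**Figure D2:**
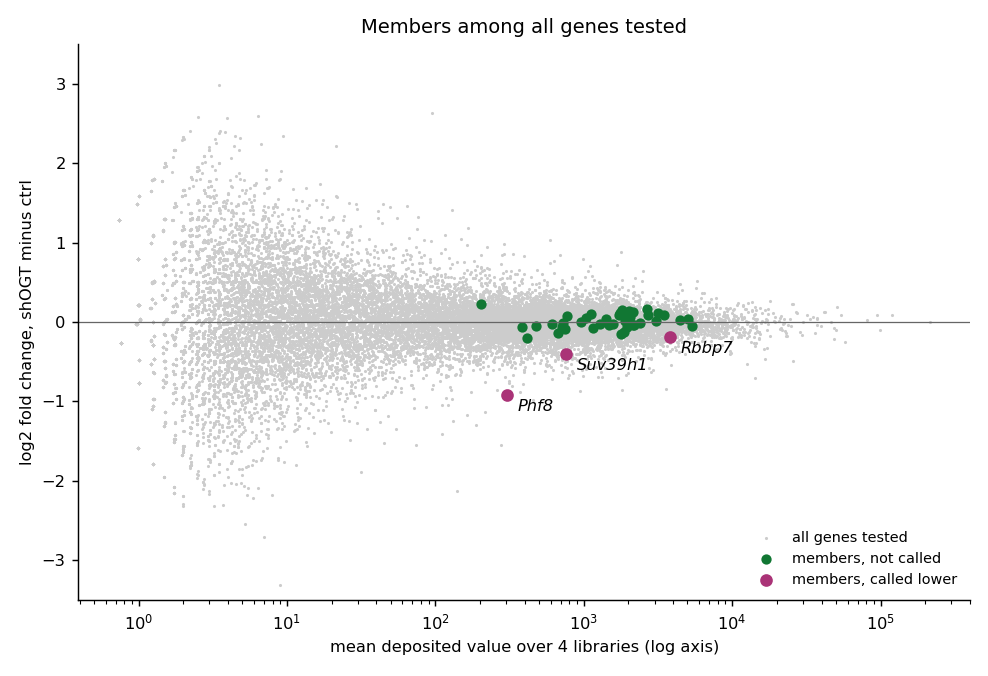
Log2 fold change of shOGT against ctrl (vertical axis) against the mean deposited value over the 4 libraries (horizontal log axis) for all genes tested (grey) and the 45 members (green, or purple where called lower). The members sit at means of 203 to 5327, where the spread of all genes is narrow, and Phf8 at -0.91 lies farthest from 0.

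Both shOGT values lay above both ctrl values in 17 members (37.8%) and below them in 14 (31.1%). The background shares were 25% and 24.3% of all genes tested, and 28% and 32.3% of genes in the same range of levels. In either direction, the groups did not overlap in 49.3% of all genes tested and 60.4% of those in the range. They overlapped in 14 of the 45 members, in 11076 of the 21829 genes tested and in 3662 of the 9242 genes in the range. A gap between groups of 2 libraries can be very small, as for Kmt2c at 2403 and 2416 in ctrl against 2380 and 2399 in shOGT.

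The 9 erasers of H3K9 methylation remove marks of silent chromatin with JmjC oxygenase domains, and 1 of them fell. Phf8 encodes a demethylase of H3K9 and H4K20 that is recruited to H3K4-methylated promoters, and its loss in humans is known to cause X-linked intellectual disability. Its values were 426 and 371 in ctrl against 214 and 207 in shOGT. Both shOGT libraries lay far below both ctrl libraries, and they differed less from each other than the ctrl libraries did. The log2 fold change was -0.91 ± 0.10 (SE; 95% interval -1.14 to -0.69; limma adjusted p = 0.00198), the 19th largest fall among the 633 genes called lower. Phf8 (ENSMUSG00000041229) spans chromosome X from 151520672 to 151633859 (GRCm38, plus strand), and its exons overlap no other measured gene. Without ctrl 1 the log2 fold change was -0.81 and without ctrl 2 it was -1.01.

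Of the close relatives of Phf8, 0 passed the test. Phf2, another H3K9 demethylase of the same family, measured 1991 and 2022 in ctrl against 1870 and 1976 in shOGT (-0.06, interval -0.17 to 0.05). Kdm7a, the family member that acts on H3K9 and H3K27, measured 707 and 744 in ctrl against 739 and 704 in shOGT (-0.008, interval -0.15 to 0.14). Within each library the log2 ratio of Phf8 to Phf2 was -2.22 and -2.44 in ctrl against -3.12 and -3.25 in shOGT, a difference of -0.85. Against Kdm7a the ratio differed by -0.91 between the groups. Both ratios were lower in both shOGT libraries. With 6 arrangements of the libraries, the exact permutation test (2-sided) gave p = 0.333 for each ratio, the smallest this design allows. Here, and for Suv39h1 and Rbbp7 below, the ratio starts from a member already called lower. It is therefore no further evidence of the fall.

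Jmjd1c, a JmjC protein with reported H3K9 demethylase activity, had the next smallest p of the H3K9 erasers. It measured 2983 and 3104 in ctrl against 3337 and 3260 in shOGT (0.12 ± 0.04; limma adjusted p = 0.167). The groups did not overlap, and the test over all genes was not passed. Kdm4b, which acts on H3K9 and H3K36 trimethylation, measured 709 and 688 in ctrl against 685 and 586 in shOGT, so that its difference of -0.14 rested mainly on shOGT 2 and was -0.03 without it. Kdm4b was singled out after its values had been seen. Kdm4a, of the same enzyme family, measured 1621 and 1743 in ctrl against 1801 and 1827 in shOGT (0.11 ± 0.05; limma adjusted p = 0.283). The rest, Kdm3a, Kdm3b and Kdm4c, lay between -0.06 and 0.07.

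**Figure D3:**
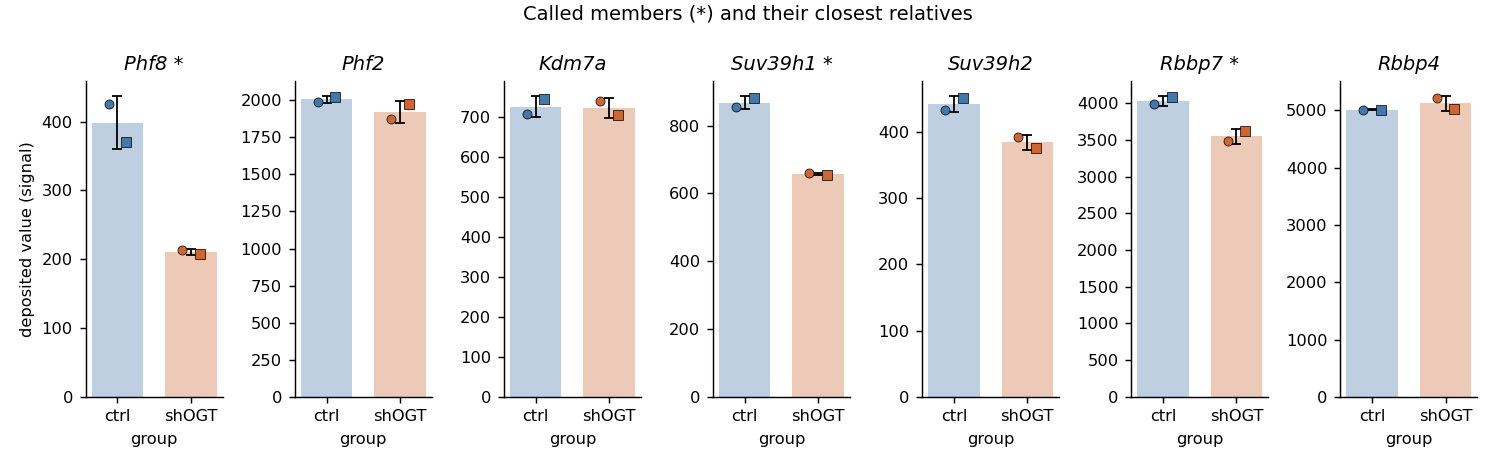
Deposited values of the 3 called members (asterisks) and of their relatives Phf2 and Kdm7a, Suv39h2 and Rbbp4 in ctrl and shOGT, with bars at the mean, error bars for the SD of 2 libraries and each library as a point; each vertical axis starts at 0 and has its own scale. Phf8 stood at 426 and 371 in ctrl against 214 and 207 in shOGT, while Kdm7a and Rbbp4 kept nearly level means.

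Among the 5 writers of H3K9 methylation, 1 fell. Suv39h1 encodes the methyltransferase that trimethylates H3K9 at pericentric heterochromatin, where the mark is bound by HP1. It measured 855 and 882 in ctrl against 659 and 654 in shOGT. The replicates of each group lay close together and the groups were well apart, at a log2 fold change of -0.40 ± 0.06 (SE; interval -0.54 to -0.27; limma adjusted p = 0.00758). Suv39h1 (ENSMUSG00000039231) lies on the minus strand of chromosome X at 8061171 to 8074760 (GRCm38). Exons of Gm14820, on the opposite strand, overlap 14.6% of its exon bases, and it is not stated whether counting used strand.

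Suv39h2, the second enzyme with this activity, measured 433 and 450 in ctrl against 392 and 376 in shOGT. Its values too were lower in both shOGT libraries, with a log2 fold change of -0.20 ± 0.08 that did not pass (limma adjusted p = 0.195). The log2 ratio of Suv39h1 to Suv39h2 was 0.98 and 0.97 in ctrl against 0.75 and 0.80 in shOGT, a difference of -0.20 (exact permutation p = 0.333, the smallest possible). The remaining H3K9 writers did not pass the test. Ehmt1 and Ehmt2, which write mono- and dimethylation in euchromatin as a pair, measured 0.04 and 0.09. Setdb1, which silences endogenous retroviruses, measured 0.09.

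The 3' UTRs of the members were searched for 3 words that came from earlier results on these data and are therefore no independent evidence: GCTATC and GTACCC, from genes lower in shOGT, and GTGTCAC, from genes higher. Of the called members, Suv39h1 alone held any of them. The stretches around the words are shown for Suv39h1, for Suz12, which was lower without passing the test, and for Kmt2a and Dot1l, which were higher without passing it. They come from the GENCODE M21 transcripts, with the word in capitals.
Suv39h1, chrX:8068760-8068783, minus strand: actttcagaGCTATCttcacccct
Suv39h1, chrX:8068234-8068257, minus strand: ggccttctaGTACCCttagaccta
Suz12, chr11:80033934-80033957, plus strand: tttctatatGTACCCttgaaaaca
Kmt2a, chr9:44806007-44806030, minus strand: caagtccttGTACCCgcagagaac
Dot1l, chr10:80793829-80793852, plus strand: cgtcccggtGCTATCtcaccagca
Dot1l, chr10:80795095-80795118, plus strand: tggccccagGTACCCtgtgactga

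Searched on the sense strand of the longest 3' UTR of each gene, GCTATC or GTACCC occurred in 13 of the 45 members (28.9%). The share was 29.2% of the 15118 tested genes with a 3' UTR, 54.9% of the called lower genes and 29.6% of the called higher ones. By the position of the libraries, 3 of the 14 members with both shOGT values below both ctrl values held a word of this pair, as did 6 of the 17 with both values above. GTGTCAC occurred in 9 members (20%), in 10.5% of the tested genes and in 20.8% of the called higher genes. The median 3' UTR was 1691 bases in members, 1148.5 in the tested genes, 1566 in called lower and 1731 in called higher genes. A longer 3' UTR has more room for a word, and the shares were not adjusted for length. The 3' UTRs of Phf8 (2432 bases) and Rbbp7 (676 bases) held none of the 3 words. A match is a description of letters, and its part in any of these differences was not tested.

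Of the 7 genes of Polycomb repressive complex 2 (PRC2), which methylates H3K27, 1 fell. Rbbp7 encodes a WD40 protein that binds histones in PRC2 and also in deacetylase and remodelling complexes. It measured 3984 and 4078 in ctrl against 3479 and 3615 in shOGT, without overlap, and its log2 fold change was -0.18 ± 0.04 (SE; interval -0.28 to -0.09; limma adjusted p = 0.0341). Rbbp7 (ENSMUSG00000031353) spans chromosome X from 162760402 to 162779092 (GRCm38, plus strand), and exons of Txlng on the opposite strand overlap 5.98% of its exon bases. Its near twin Rbbp4, which takes the same place in these complexes, measured 5004 and 5016 in ctrl against 5214 and 5034 in shOGT (0.03, interval -0.05 to 0.12). The log2 ratio of Rbbp7 to Rbbp4 was -0.33 and -0.30 in ctrl against -0.58 and -0.48 in shOGT, a difference of -0.22 (exact permutation p = 0.333, the smallest possible).

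The scaffold subunit Suz12 measured 1940 and 1968 in ctrl against 1780 and 1801 in shOGT (-0.13 ± 0.05; limma adjusted p = 0.162). Its groups were apart and its replicates close, but it did not pass. Ezh2, the catalytic subunit of dividing cells and a known Ogt substrate, measured 2143 and 2246 in ctrl against 2175 and 2101 in shOGT. These values overlap, and the interval of the difference was -0.14 to 0.07. Eed, which binds the finished mark, lay at -0.08, and Jarid2, an accessory subunit that guides the complex, at 0.07. Ezh1, the paralog of Ezh2 that is more usual in resting cells, was the least expressed member in ctrl. It measured 205 and 169 in ctrl against 225 and 211 in shOGT. Its log2 fold change of 0.23 had the widest interval (-0.05 to 0.51), and it was 0.37 without ctrl 1 and 0.09 without ctrl 2. Kdm6b, an eraser of H3K27 trimethylation, measured 1016 and 906 in ctrl against 1017 and 911 in shOGT. The replicates of each group differed by far more than the group means (0.005, interval -0.17 to 0.18).

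None of the 8 genes of the H3K4 writer group passed the test, and 2 had an unadjusted limma p under 0.05. Kmt2a (MLL1), which keeps Hox and other developmental genes active, measured 2571 and 2486 in ctrl against 2832 and 2840 in shOGT. Both shOGT libraries were higher, by a log2 fold change of 0.17 ± 0.04 that narrowly missed the threshold (limma adjusted p = 0.0583). It passed when genes under 10 were left out (limma adjusted p = 0.0221) and when the libraries were rescaled to equal totals (limma adjusted p = 0.0379). Kmt2d, which places H3K4 monomethylation at enhancers, measured 1870 and 1937 in ctrl against 2155 and 2047 in shOGT (0.14 ± 0.05; limma adjusted p = 0.142). Kmt2b, the sister enzyme of Kmt2a, lay at 0.10 and Kmt2c, the sister of Kmt2d, at -0.01. Setd1a and Setd1b, the enzymes of promoter H3K4 trimethylation, lay at -0.05 and -0.02, Setd7 at -0.03, and Kmt2e, a family member without clear methyltransferase activity, at -0.03. The 95% intervals of the 8 ran from -0.21 to 0.26.

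Of the 4 erasers of H3K4 methylation, 0 passed and 1 had an unadjusted limma p under 0.05. Kdm5a, which removes H3K4 trimethylation, measured 1749 and 1705 in ctrl against 1892 and 1948 in shOGT (0.15 ± 0.05; limma adjusted p = 0.105). Its paralog Kdm5b measured 1055 and 1090 in ctrl against 1124 and 1175 in shOGT (0.10 ± 0.06). For both, the shOGT libraries lay above the ctrl libraries. Kdm1a (LSD1), which removes mono- and dimethylation, measured 1918 and 2064 in ctrl against 2143 and 1978 in shOGT, with overlap (0.05), and its relative Kdm1b lay at -0.07.

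H3K36 methylation is written by 5 of the members, none of which passed. Setd2, the enzyme of H3K36 trimethylation in gene bodies, had the smallest p, with 1827 and 1923 in ctrl against 1621 and 1751 in shOGT (-0.15 ± 0.05; limma adjusted p = 0.16). Ash1l, which counters Polycomb silencing, measured 2642 and 2594 in ctrl against 2693 and 2902 in shOGT (0.09 ± 0.05). The dimethylating enzymes Nsd1, Nsd2 and Nsd3 lay at 0.01, -0.05 and -0.04, and the intervals of the 5 writers ran from -0.28 to 0.20. The erasers Kdm2a and Kdm2b, both CpG-island proteins, differed in sign. Kdm2a measured 1789 and 1936 in ctrl against 2007 and 2029 in shOGT (0.12 ± 0.05; limma adjusted p = 0.258), and Kdm2b measured 1169 and 1210 in ctrl against 1113 and 1138 in shOGT (-0.08 ± 0.05; limma adjusted p = 0.465).

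Dot1l, the sole H3K79 methyltransferase, measured 2082 and 1993 in ctrl against 2310 and 2142 in shOGT. It was higher in both shOGT libraries without passing the test (0.13 ± 0.05; limma adjusted p = 0.22). None of the 3 arginine methyltransferases had an unadjusted limma p under 0.05. Carm1, a coactivator enzyme of H3, measured 1017 and 1004 in ctrl against 1057 and 1043 in shOGT (0.05), and exons of Yipf2 on the opposite strand overlap 21.1% of its exon bases. Prmt1, the main enzyme of asymmetric arginine dimethylation, measured 4350 and 4479 in ctrl against 4594 and 4403 in shOGT, with overlap (0.03). Prmt5, the main enzyme of symmetric dimethylation, lay at 0.01. Their 3 intervals ran from -0.09 to 0.18.

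The 3 members that fell were the 3 members that lie on chromosome X, where Ogt lies as well. The 42 members on autosomes gave 0 calls. Among genes in the members' range of levels, 42 of 315 on chromosome X were called lower (13.3%) and 7 higher (2.22%), while on autosomes 5.43% were lower and 3.68% higher. The median log2 fold change of these X-linked genes was -0.03 and that of the autosomal genes -0.008. Other X-linked genes of histone methylation did not pass the test. Kdm5c, an H3K4 demethylase, measured 2454 and 2494 in ctrl against 2524 and 2544 in shOGT (0.03), Kdm6a, an H3K27 demethylase, 572 and 599 against 573 and 594 (-0.006), and Hcfc1, which Ogt cleaves and modifies, 4257 and 4286 against 4368 and 4105 (-0.01). These 3 genes were singled out after their values had been seen. The part of the chromosome in the falls was not tested.

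Levels can be compared between genes only per length. Per kilobase of merged exons, the most abundant member in ctrl was Rbbp7, with a mean of 1386 ± 22.8 (SD, n = 2), followed by Prmt1 at 1289 ± 26.6, Ehmt2 at 613 ± 8.72 and Rbbp4 at 573 ± 0.976. In shOGT the order of the first pair was turned, with Rbbp7 at 1219 ± 33.1 and Prmt1 at 1313 ± 39.4. At the low end in ctrl stood Setd1b at 50.7 ± 0.599, Phf8 at 42.8 ± 4.16 and Ezh1 at 25.1 ± 3.5. In shOGT Phf8, at 22.6 ± 0.479, came below Ezh1, at 29.3 ± 1.35, and became the lowest member. Suv39h1 fell from 165 ± 3.65 to 125 ± 0.667 per kilobase and stayed above Suv39h2, at 100.1 ± 2.81 and 87.1 ± 2.60. Many neighbours in the middle of the order, such as Ash1l (176 ± 2.28), Nsd1 (176 ± 3.88) and Setd2 (174 ± 6.34) in ctrl, did not differ beyond their spread.

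**Figure D4:**
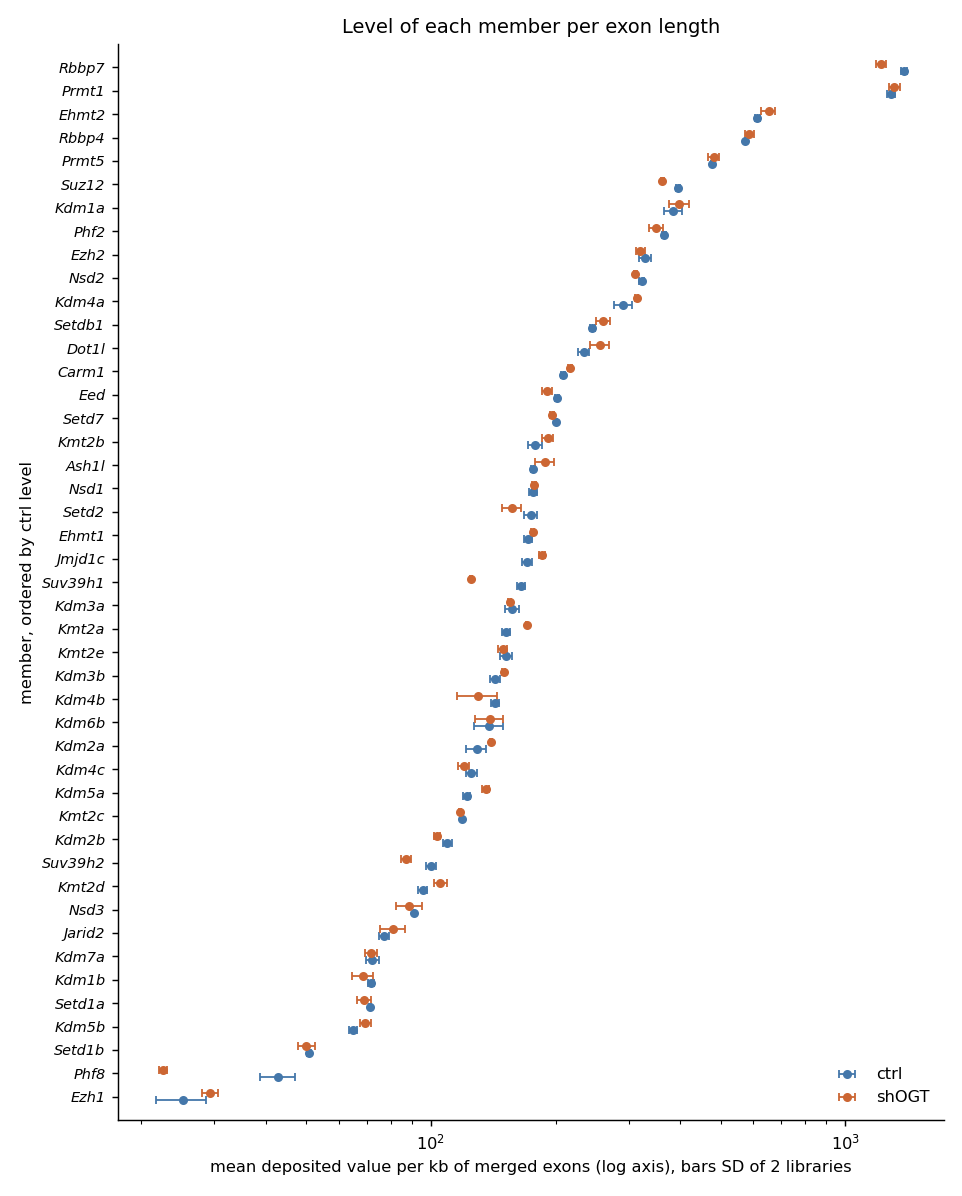
Mean deposited value per kilobase of merged exons (horizontal log axis) of each member in ctrl and shOGT, ordered by the ctrl level, with error bars for the SD of 2 libraries. The clearest gaps between the groups are those of Phf8 (42.8 and 22.6) and Suv39h1 (165 and 125).

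Of 68 further genes of the pathway, 0 were called in either direction in limma, and 9 had an unadjusted p under 0.05 (13.2%, beside 19.3% of all genes tested). They were 18 other lysine methyltransferases (median log2 fold change 0.02), 13 other lysine demethylases and JmjC proteins (0.04), 6 other arginine methyltransferases (-0.01), 11 subunits of the H3K4 methyltransferase complexes (-0.03), 6 accessory subunits of PRC2 (-0.03), 8 subunits of the corepressor around Kdm1a (-0.03) and 6 genes of methyl donor supply (0.09). Both shOGT values lay above both ctrl values in 20 of the 68 and below them in 17, beside 25% and 24.3% of all genes tested. In genes of the members' range of levels those shares were 28% and 32.3%, and 31.2% had an unadjusted limma p under 0.05. Some of the 68 lay outside that range, 4 of them under 10 in every library. When genes that did not reach 10 in 2 or more libraries were left out, 3 of the related genes kept were called higher and 1 lower. Of all genes kept, 5.31% were higher and 7.32% lower (12.6% in either direction). Smyd1, Mecom, Kdm4d, Prmt8 and Jmjd7 of the 68 were left out of that fit.

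Genes of mitosis moved in these libraries as well. Of 20 markers of G2/M and mitosis 7 were called lower and 0 higher (median -0.19), and their summed values were 68782 and 68261 in ctrl against 61064 and 60408 in shOGT. Of 20 markers of S phase 3 were lower (Pola1, Fen1 and Pcna) and 0 higher (median -0.06), with sums of 49142 and 50842 in ctrl against 49121 and 47394 in shOGT. Mature astrocyte markers were lower in sum as well, at 17751 and 17244 in ctrl against 14701 and 14943 in shOGT, with 3 of 5 called. Pdgfra and Gpr17, 2 of 7 tested oligodendrocyte lineage markers, were called lower, and 5 of the 7 had a negative log2 fold change (median -0.39). Olig1 and Olig2 made up most of the summed values of that list, which were 56072 and 57018 in ctrl against 58465 and 57861 in shOGT. Among the neural stem cell markers, Fabp7 was called lower (-0.49). The part of cell cycle and cell type in the falls of Phf8, Suv39h1 and Rbbp7 was not tested.

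All 3 calls were lost in limma when any 1 library was left out, and so was every other call over all genes tested. Leaving 1 out leaves a group of 1 library, and the loss is not particular to the members. Each of the 3 stayed lower in every such fit. The log2 fold changes ran from -1.01 to -0.81 for Phf8, -0.42 to -0.38 for Suv39h1 and -0.21 to -0.16 for Rbbp7. When genes under 10 were also left out, Phf8 passed with each of the 4 libraries left out in turn, Suv39h1 did not pass without ctrl 2 (limma adjusted p = 0.0585), and Rbbp7 not without ctrl 1 or ctrl 2 (0.13 and 0.187).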

How the data were processed

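Per library, the authors deposited a signal for each of 25261 Ensembl identifiers, with a normalization not given in the sources used here. Genome build mm10 is named in the submitters' processing notes. Every deposited value was a whole multiple of 1 step per library (tolerance 0.01 of a step), the form of reads divided by 1 factor. Symbols came from GENCODE M21 on GRCm38, with 25242 identifiers matched and 19 not.

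The groups were compared with limma 3.58.1 in R 4.3.3 (empirical Bayes with a variance trend) on log2(value + 1), keeping genes that reached 1 in 2 or more libraries. This scale understates changes where values are low. Calls needed a Benjamini-Hochberg adjusted p under 0.05 over all 21829 genes kept. The fit was tested on simulated data. Members and lists were chosen with earlier results of these data known, and the 3' UTR words came from those results. By rule, called members and the 2 of smallest p per mark were given with the value of every library. Kmt2c, Kdm1a, Kdm4a, Kdm4b, Ezh1, Ezh2, Phf2, Kdm7a and Rbbp4 fall outside that rule and were added after their values had been seen. With 2 libraries a group, no permutation test can reach 0.05. Cx3cr1, Cldn5, Dcn, Lum and Pagr1a of the lists were not analysed here.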

Additional observations from a re-analysis of the deposited data

How the results depend on the processing

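Over 12 planned settings and 6 chosen after seeing the data, 34 of 45 members kept their direction in every setting, Phf8, Suv39h1 and Rbbp7 among them. The calls depended on several settings. With no filter, with quantile normalization, with no variance trend, and with a minimum of 10 and no variance trend, 0 members, 0 genes in all, 0 G2/M markers, 0 S phase markers and 0 members with a 3' UTR word were called in limma. Unadjusted p under 0.05 was then reached by 4302, 3998, 2763 and 2891 genes. Ogt stayed at -0.26 (-0.25 with quantile normalization), with limma adjusted p of 0.115, 0.0936, 0.349 and 0.183. Leaving out each library in turn gave counts of 0 to 0 for all of these, with 2484 to 3389 genes at an unadjusted p under 0.05, and Ogt ran from -0.29 to -0.23. A lone sample was there assumed to vary like the other group.

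A minimum of 10 called 822 genes higher and 1133 lower, with 1 member higher (Kmt2a), 3 related genes higher and 1 lower, 13 G2/M markers lower and 1 S phase marker higher. Kmt2a was also the 1 member higher with a pseudocount of 5 and with equal totals, which called 1 related gene higher. With a minimum of 10 and quantile normalization, 2 members (Kmt2a and Jmjd1c), 799 genes in all, 3 related genes and 1 S phase marker were higher, and 1 related gene was lower. With a minimum of 10 and each library left out in turn, 99 genes were higher and 176 lower without ctrl 1, 150 and 179 without ctrl 2, 1017 and 1318 without shOGT 1, and 991 and 1466 without shOGT 2. In those fits 0 to 5 members were higher and 1 to 4 lower, 0 to 1 of them with a 3' UTR word. Related genes numbered 0 to 2 higher and 0 to 3 lower, G2/M markers 1 to 15 lower (14 without shOGT 2), and S phase markers 0 to 1 higher and 0 to 7 lower, while Ogt ran from -0.29 to -0.23.

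Direction reversed in 11 members, whose main log2 fold changes were 0.049 or less in size. Kmt2c turned to 0.0047 with equal totals and to 0.011 with quantile normalization, and Kdm7a to 0.0089 and 0.0092. With a minimum of 10 and quantile normalization, Kmt2c was again at 0.011 and Kdm7a at 0.0092. With libraries left out in turn, under either minimum, Kdm7a ran from -0.045 to 0.029, with 0.027 without shOGT 2, and Kmt2e from -0.060 to 0.0094. Setd1b ran from -0.069 to 0.028, Kdm1a from -0.0087 to 0.11 (-0.0038 without ctrl 1), and Nsd1 from -0.013 to 0.032 (-0.0038 without shOGT 1). Nsd3 ran from -0.11 to 0.032, Kdm3a from -0.058 to 0.018, Kdm6b from -0.078 to 0.088 (-0.075 without shOGT 1), Prmt1 from -0.0035 to 0.058, and Prmt5 from -0.019 to 0.044.

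The libraries share only a replicate number: over 15475 genes, the difference between replicates 1 and 2 correlated at r = 0.0281 between ctrl and shOGT. With the replicate block, 1007 genes were called higher and 1295 lower, with 1 member higher (Kmt2a), 3 related genes higher and 2 lower, 13 G2/M markers lower and 1 S phase marker higher. Planned count tests with edgeR and DESeq2 were not run. The deposited values are not counts as such, and reads recovered from them were not accepted for ctrl, where the steps between values (0.997 and 0.992) lie close to 1. The cause of these shifts was not tested.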
